A study of Mus musculus with 42 samples.

Results

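The genes described here encode mitochondrial ribosomal proteins. They were chosen by name: every array row with exactly 1 platform gene symbol that starts with Mrpl or Mrps followed by a digit, with the row of the highest mean kept where a symbol had several. This gave 77 of 19752 genes, 48 with large subunit (Mrpl) and 29 with small subunit (Mrps) names. Apart from the choice among rows of 1 symbol, measured levels played no part in the rule. Of the 77 genes, 76 exceeded the median of an array on 2 or more of the arrays and were tested. Mrpl42 was above it on 0 arrays, with log2 levels of 3.56 to 6.42, and has no test. Mrpl53 lay only on a row shared with another gene and was not counted.

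RNA had been measured on 42 Affymetrix ST1.0 gene arrays in CD4+ T cells sorted from the spleens of NOD mice carrying Foxp3-IRES-GFP, a green fluorescent reporter of Foxp3. Tconv (conventional, GFP-) and Treg (regulatory, GFP+) cells were taken 0, 2, 8, 24 and 72 h after intravenous KT3, an antibody to CD3 that triggers the T cell receptor complex, from female mice of 8 weeks. Rat IgG, the injection control, was studied at 24 h with 1 array for each cell type. In the other setting whole splenocytes were cultured with 1.25 µg/ml KT3 for the same times before the sort. There the arrays numbered 1 came from female mice of 9 weeks and those numbered 2 from male mice of 14 weeks. All groups other than IgG had 2 arrays, and all mice carried the reporter. The 0 h mice had received no injection. The cultured splenocytes hold cells other than T cells, and the labels of the cultured Treg give their gate as GFP-. The sources used here do not say whether the 2 in vivo arrays of a group came from separate mice, so p-values measure the spread between these arrays, part of which may be technical.

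The mitochondrial ribosome translates the few messenger RNAs encoded in mitochondrial DNA, which specify core subunits of the respiratory chain and ATP synthase. Its RNAs are mitochondrial, but all of its proteins are encoded in the nucleus, made in the cytosol and imported. Some have a bacterial counterpart, and others exist only in mitochondria. T cells leaving rest are known to enlarge and remodel their mitochondria before they divide.

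Promoters were searched because the members changed together. RefSeq promoter windows (GRCm38.p6, 250 bases before to 50 after the start site) were found for 68 of the 77 genes. Matches on either strand were counted for the E-box CACGTG, which Myc can bind, for CCGGAAGT, an ETS or GABP core, and for CGCATGCG, an NRF1 core. CCGGAAGT lay in the windows of 12 members, or 17.6% of those found, against 4.31% of all 27025 genes in the table. CGCATGCG lay in 7, or 10.3% against 2.07%, and CACGTG in 5, or 7.35% against 8.09%. In 45 members none of these letters was found. The NRF1 core was present in Mrpl17 and Mrps18b, which were called at 2 h in Tconv in vivo, and in Mrpl9, Mrpl10, Mrpl22, Mrpl32 and Mrpl39, which were not. The bases before the start site of 6 members are shown, a pair for each motif, with the match in capitals. These were chosen for holding a match and for a called rise at 8 h in Tconv in vivo. Mrps6 and Mrps30, which also rose strongly then, were not among the members with a match.
Mrpl17 (minus strand, chr7:105811088-105811337): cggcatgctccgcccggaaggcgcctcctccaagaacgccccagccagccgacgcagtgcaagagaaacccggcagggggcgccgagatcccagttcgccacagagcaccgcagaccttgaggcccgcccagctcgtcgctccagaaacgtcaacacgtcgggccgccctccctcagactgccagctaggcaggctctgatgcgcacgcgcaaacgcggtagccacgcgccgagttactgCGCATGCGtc
Mrps18b (minus strand, chr17:35916441-35916690): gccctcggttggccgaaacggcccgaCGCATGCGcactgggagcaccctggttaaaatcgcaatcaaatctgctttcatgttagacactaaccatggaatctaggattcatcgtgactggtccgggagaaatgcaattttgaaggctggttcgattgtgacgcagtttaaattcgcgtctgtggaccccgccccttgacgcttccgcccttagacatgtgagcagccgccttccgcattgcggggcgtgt
Mrpl20 (plus strand, chr4:155802628-155802877): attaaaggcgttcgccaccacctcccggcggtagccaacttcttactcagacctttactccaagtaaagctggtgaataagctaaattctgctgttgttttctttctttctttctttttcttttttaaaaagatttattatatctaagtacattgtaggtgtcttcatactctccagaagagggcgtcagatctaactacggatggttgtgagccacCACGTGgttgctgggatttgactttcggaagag
Mrpl36 (plus strand, chr13:73330759-73331008): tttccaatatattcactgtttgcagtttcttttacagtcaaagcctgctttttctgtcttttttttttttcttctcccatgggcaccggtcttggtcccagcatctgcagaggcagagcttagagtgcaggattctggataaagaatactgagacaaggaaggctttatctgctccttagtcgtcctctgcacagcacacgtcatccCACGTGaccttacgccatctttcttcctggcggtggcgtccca
Mrpl3 (plus strand, chr9:105053018-105053267): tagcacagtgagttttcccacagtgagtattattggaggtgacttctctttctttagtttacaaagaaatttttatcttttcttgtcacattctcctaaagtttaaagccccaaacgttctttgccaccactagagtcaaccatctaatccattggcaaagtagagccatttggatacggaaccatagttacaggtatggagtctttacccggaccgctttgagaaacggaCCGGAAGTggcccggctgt
Mrps27 (plus strand, chr13:99344536-99344785): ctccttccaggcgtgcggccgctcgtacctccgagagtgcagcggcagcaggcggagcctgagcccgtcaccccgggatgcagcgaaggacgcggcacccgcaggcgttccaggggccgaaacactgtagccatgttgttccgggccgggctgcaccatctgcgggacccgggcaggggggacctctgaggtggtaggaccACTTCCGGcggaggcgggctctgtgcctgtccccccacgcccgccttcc
The match ended 2 bases before the start site in Mrpl17, 216 in Mrps18b, 27 in Mrpl20, 37 in Mrpl36, 11 in Mrpl3 and 41 in Mrps27, where it was read on the reverse strand. The start site used for Mrpl36 lies inside its annotated gene span, chr13:73328503-73332178, so that its window is not the sequence before that span. That used for Mrps27 also lies inside its span, chr13:99344767-99415562, so that the last bases shown for it fall within the span. A match of letters shows neither binding nor a cause of the changes below.

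The sorted cells carried the markers of their labels. On the log2 scale of the deposited intensities, which is used throughout, Foxp3 was between 7.02 and 8.20 in all Tconv arrays and between 11.30 and 12.34 in all Treg arrays, those labelled GFP- included. Il2ra, the high-affinity interleukin-2 receptor chain that activated Tconv induce, rose in Tconv in vivo by 4.56 ± 0.30 (log2, SE) at 2 h and 3.98 ± 0.30 at 8 h (limma, adjusted p = 3.47e-10 and 3.57e-09). Of the in vivo arrays, those numbered 1 had been sorted once in 9 of 10 cases and those numbered 2 again in 10 of 12. At 8 h in Tconv the order was turned, the number 1 array being double-sorted and number 2 single-sorted. Mean log2 levels of the markers of other cells were higher on the number 1 array in 10 of 10 in vivo groups for B cells, macrophages, neutrophils, platelets and CD8 T cells, in 9 for NK, dendritic and plasma cells and in 8 for erythroid cells. Neutrophil markers lay at 6.59 to 9.49 on the number 1 arrays and 5.17 to 5.75 on the number 2 arrays, macrophage markers at 6.0 to 8.08 and 5.05 to 5.44, and B cell markers at 6.40 to 8.30 and 5.23 to 5.81. No marker was at 0, which these values do not reach, and the part of these cells in the results was not tested. Member changes are therefore also given within each array number. In culture the Tconv 0 h array numbered 1 stood apart, with a mean correlation of 0.511 to the other arrays, against 0.794 to 0.914 for the rest, and an interquartile range of 1.645, against 2.097 to 3.208. Every cultured Tconv change against 0 h includes it, and so do the differences built on those changes.

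In Tconv in vivo the mitochondrial ribosomal protein genes rose together at 8 h and were back near the starting level by 72 h. Of 76 tested members 49 rose at 8 h and 0 fell, with a median log2 change of 0.93 (limma, Benjamini-Hochberg adjusted p under 0.05 over 12425 genes, called hereafter). Of all genes tested 14.4% rose and 6.54% fell, with a median of -0.06. The members' median level was 8.09 and 7.89 on the 2 arrays at 0 h, 8.51 and 7.93 at 2 h, 8.99 and 8.77 at 8 h, 8.46 and 8.22 at 24 h and 7.96 and 8.00 at 72 h. Both 8 h arrays lay above all other Tconv arrays taken in vivo, whereas those at 72 h lay within the range at 0 h. Within array number 1 the members' median change at 8 h was 1.01, and within number 2 it was 0.88. On both numbers 72 of 76 members were higher at 8 h, against 40.7% of all genes. Since the sort at 8 h in Tconv was the reverse of that at 0 h on each number, arrays of the same sort were also set against each other. The median change was 1.17 between the double-sorted arrays, with 73 of 76 members higher, and 0.76 between the single-sorted ones, with 73 higher. Markers of other cells went with the array number and not with the sort, so that these pairs were not matched in them. Neutrophil markers were at 6.59 and 5.36 on arrays number 1 and 2 at 0 h, and at 7.45 and 5.26 at 8 h. B cell markers were at 6.93 and 5.37, and at 6.97 and 5.23. In 67 of 76 members the highest group mean was at 8 h, against 32.6% of all genes. In sorted cells pooled for an array, more RNA per cell and a shift in which cells were sampled cannot be told apart.

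**Figure D1:**
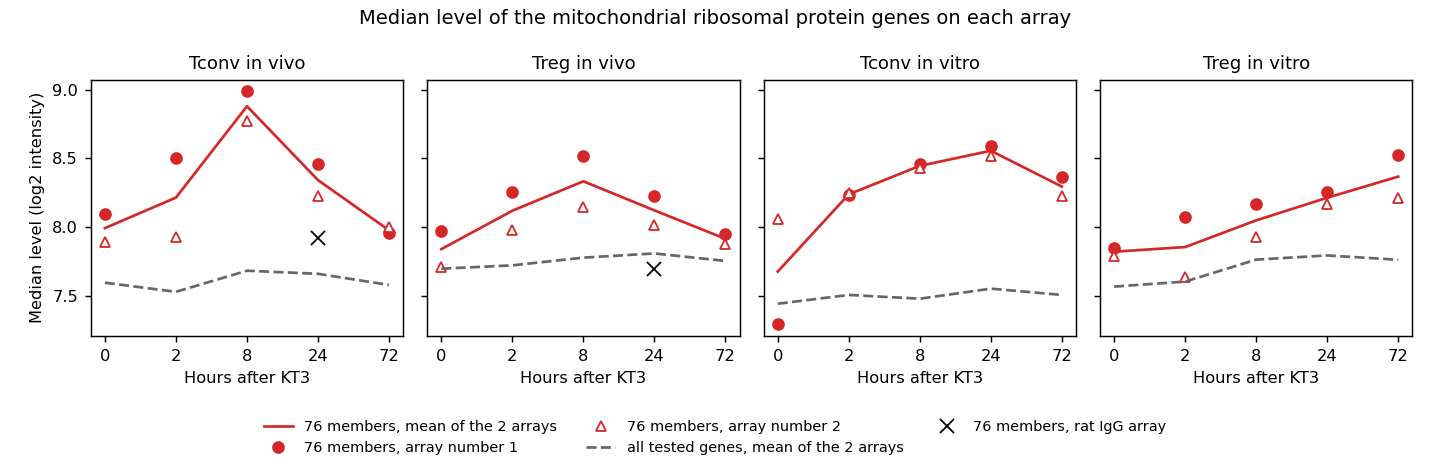
Median log2 level of the 76 tested mitochondrial ribosomal protein genes on each array (points, by array number) against hours after KT3, for Tconv and Treg in vivo and in vitro. Solid lines join the means of the 2 arrays, dashed lines give all tested genes, and crosses are the rat IgG arrays. The Tconv arrays at 8 h in vivo sit at 8.99 and 8.77, and the cultured Tconv 0 h array numbered 1 sits alone at 7.29.

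The 8 h rise in Tconv was shared by both subunits and by old and newer proteins of the ribosome. Of the large subunit names 31 of 47 rose (median 0.92) and of the small subunit names 18 of 29 (median 0.93). Of the proteins with a bacterial counterpart 29 of 48 rose, and of those found only in mitochondria 20 of 28, with medians of 0.95 and 0.91. The count of 49 fell to 24 without the number 1 array at 8 h and to 26 without the number 2 array at 0 h. Of the 49 calls, 22 held under each of the 13 alternatives run. With the array number as a block for each cell type 59 members were called, when 27.8% of all genes were called.

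Mrps6, a small subunit protein with a bacterial counterpart, had the largest fitted rise. Its log2 levels in Tconv in vivo were 8.60 and 7.80 at 0 h, 9.44 and 8.64 at 2 h, 10.43 and 10.13 at 8 h, 9.67 and 9.15 at 24 h and 8.65 and 8.63 at 72 h. Both 8 h arrays were higher than every other array of this course, and the 24 h arrays also lay above those at 0 h. The change was 2.08 ± 0.28 at 8 h and 1.21 ± 0.28 at 24 h (limma, adjusted p = 9.48e-06 and 0.0134). Leaving out the number 1 array at 24 h or the number 2 array at 0 h ended the 24 h call.

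Mrps18b and Mrpl17 were the early members, called already at 2 h. With 3.04% of all genes rising then, 2 of 76 members was near the background. Mrps18b is 1 of 3 mammalian paralogues of a bacterial small subunit protein. In Tconv in vivo it was at 9.45 and 9.05 at 0 h, 10.58 and 9.84 at 2 h, 10.98 and 10.69 at 8 h, 9.18 and 9.05 at 24 h and 8.65 and 8.76 at 72 h. The 2 and 8 h arrays did not overlap with those at 0 h. Mrps18b had risen by 0.96 ± 0.26 at 2 h and 1.58 ± 0.26 at 8 h (limma, adjusted p = 0.0391 and 0.000101), then fell by 1.72 ± 0.26 from 8 to 24 h (adjusted p = 3e-05). Mrpl17, a large subunit protein with a bacterial counterpart, was at 7.76 and 7.88 at 0 h, 9.20 and 8.90 at 2 h, 9.20 and 9.23 at 8 h, 7.79 and 8.07 at 24 h and 7.49 and 7.22 at 72 h. Its level was thus as high at 2 h on the number 1 array as at 8 h. The rise was 1.23 ± 0.21 at 2 h (limma, adjusted p = 0.000628) and 1.39 ± 0.21 at 8 h, and the later fall was 1.28 ± 0.21 (adjusted p = 8.15e-05). The 2 h call of Mrpl17 held under all 13 alternatives, whereas that of Mrps18b was lost under 5 of them, among them median centring and leaving out either 0 h array or the number 1 array at 2 h.

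Among the other strong 8 h responders, Mrps30, which despite its name sits in the large subunit, was at 6.90 and 7.12 at 0 h and 8.57 and 8.67 at 8 h, a rise of 1.61 ± 0.30 (limma, adjusted p = 0.000301). Mrpl36, a short large subunit protein, was at 7.86 and 7.76 at 0 h and 9.50 and 9.34 at 8 h, a rise of 1.61 ± 0.30 (limma, adjusted p = 0.000301). Mrpl52, found only in mitochondria, went from 8.80 and 8.18 to 10.20 and 9.96, a rise of 1.58 ± 0.36 (limma, adjusted p = 0.00211). In none of the 3 did the groups overlap. Mrpl52 was not called without the number 2 array at 0 h. Mrpl15, Mrpl3 and Mrpl20, all large subunit proteins with bacterial counterparts, rose by 1.57, 1.53 and 1.52. Mrpl20 was at 8.24 and 8.39 at 0 h and at 9.87 and 9.79 at 8 h.

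The 3 paralogues Mrps18a, Mrps18b and Mrps18c, which replace 1 bacterial protein, differed in how firmly they could be called. Mrps18a, now placed in the large subunit, was at 8.47 and 8.09 at 0 h and 9.74 and 9.25 at 8 h in Tconv in vivo. It rose by 1.22 ± 0.27 (limma, adjusted p = 0.0018), a call lost without the number 1 array at 8 h. Mrps18c was at 9.08 and 8.55 at 0 h and 10.01 and 9.80 at 8 h. Its groups did not overlap either, but its change of 1.09 ± 0.54 was not called (limma, adjusted p = 0.166). On the cultured Tconv 0 h arrays Mrps18c was at 5.88 and 8.90, a gap that widens its error in the shared fit.

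Not every member took part. Mrps16, a small subunit protein with a bacterial counterpart, stayed between 9.34 and 9.92 on the Tconv arrays taken in vivo, at 9.56 and 9.71 at 0 h and 9.34 and 9.55 at 8 h. Its change of -0.19 at 8 h was not called (limma, adjusted p = 0.485). Mrps10 was at 7.24 and 7.77 at 0 h and 7.10 and 7.30 at 8 h, a change of -0.30 (limma, adjusted p = 0.404). Over all 16 responses 11 members (14.5%) were never called, against 42.2% of all genes: Mrpl27, Mrpl33, Mrpl34, Mrpl41, Mrpl47, Mrpl49, Mrpl55, Mrps10, Mrps11, Mrps16 and Mrps23. With the array number as a block Mrpl27, Mrpl34, Mrpl41 and Mrps23 were called at 8 h in Tconv in vivo. A change missed by the test does not show that these genes were constant.

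Of the 11, Mrpl47 depends on the array row. It was 1 of 8 members with 2 rows. The row used changed by -0.02 at 8 h in Tconv in vivo, from 7.21 to 7.19 (group means), while its other row went from 6.32 to 8.09, a difference of 1.77. Over all arrays the pair correlated at r = 0.094. The other 7 members with 2 rows moved the same way on each at 8 h, by 1.20 and 1.17 for Mrpl23, 1.42 and 1.51 for Mrps36 and 1.18 and 0.99 for Mrps5, and by 1.43 and 0.78 for Mrpl51.

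Mrps36 carries a ribosomal name but is now regarded as a subunit of the alpha-ketoglutarate dehydrogenase complex. It was dim, above the array median on only 3 of 42 arrays. Both Tconv arrays at 8 h in vivo were among these, so that it was tested through the group where it was high. The tests of Mrps36 here and below are therefore no independent support for its rise. Its levels in Tconv in vivo were 5.79 and 5.74 at 0 h, 6.08 and 5.67 at 2 h, 7.30 and 7.08 at 8 h, 6.23 and 6.16 at 24 h and 5.73 and 5.76 at 72 h. The 8 h arrays stood clear of the rest, and the rise was 1.42 ± 0.19 (limma, adjusted p = 1.02e-05). Mrpl12, which also binds the mitochondrial RNA polymerase, changed by 0.52 ± 0.23 (limma, adjusted p = 0.117), and Mrpl58, which rescues stalled ribosomes, by 0.12 ± 0.26 (adjusted p = 0.777). Neither was called.

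**Figure D2:**
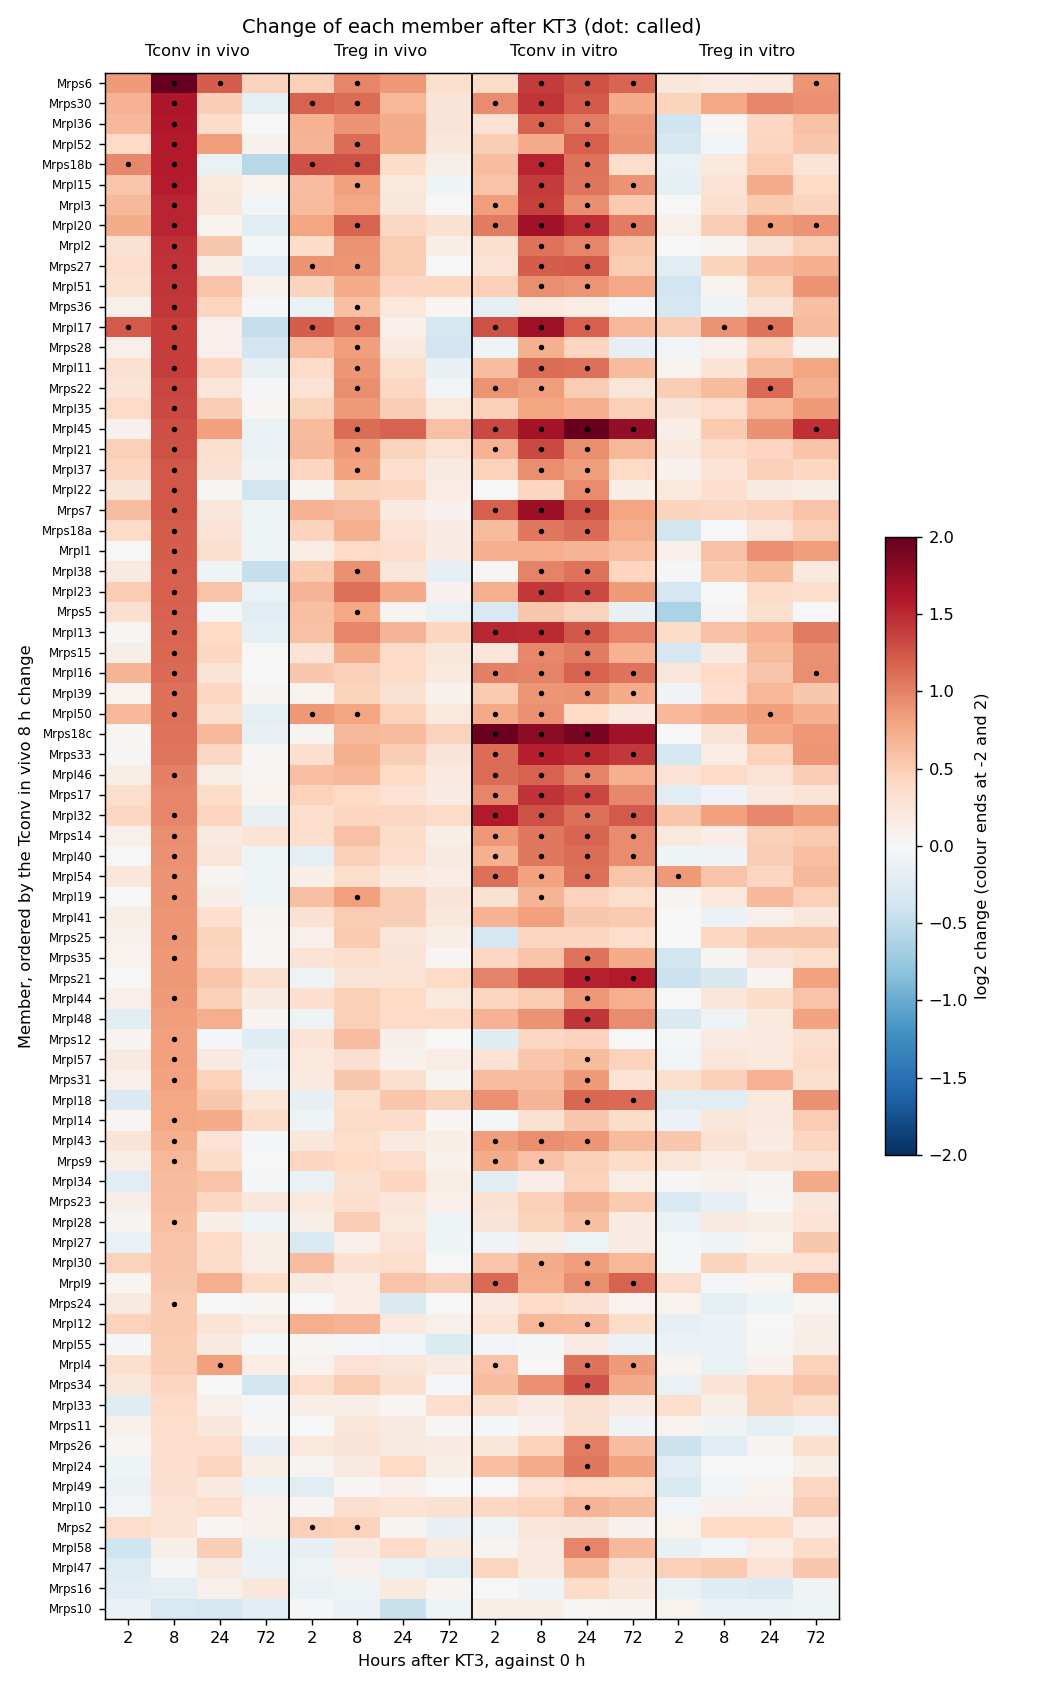
Log2 change against 0 h of each tested member (rows) in the 16 KT3 responses (columns), as colour from -2 to 2, with a dot where it was called. The columns for Tconv at 8 h in vivo and for cultured Tconv hold most of the strong rises, and no member was called lower in any column.

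At 2 h in Tconv in vivo only the pair named above rose and 0 members fell (2 of 76), when 3.04% of all genes rose and 0.467% fell. The members' count was thus near the background. The members' median change of 0.12 came from array number 1 (0.30, with 67 of 76 members higher) more than from number 2 (0.03, with 45 higher). The count was 1 without the number 1 array at 2 h or the number 2 array at 0 h, and 4 without the number 2 array at 2 h or without the cultured array that stood apart. With the array number as a block for each cell type it was also 4, Mrps6 and Mrpl50 being added, when 6.17% of all genes were called. At 24 h Mrps6 and Mrpl4 rose, when 2.27% of all genes rose and 0.129% fell. Mrpl4, a large subunit protein with a bacterial counterpart, was at 8.14 and 7.99 at 0 h, 8.59 and 8.53 at 8 h and 9.09 and 8.68 at 24 h. It thus reached its highest levels later than most members, with a rise of 0.82 ± 0.21 at 24 h (limma, adjusted p = 0.0312). The count at 24 h was 1 without the number 1 array at 0 h, 0 without the number 2 array at 0 h or the number 1 array at 24 h, and 4 without the cultured array that stood apart. At 72 h limma called 0 members, with 3 at an unadjusted p under 0.05 and a median of -0.04, when 0.266% of all genes rose and 0.0241% fell.

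The fall after 8 h was tested directly. From 8 to 24 h in Tconv in vivo 31 of 76 members fell, with a median of -0.63, when 10.9% of all genes fell. After Mrps18b, Mrpl20 fell by 1.44 ± 0.25 (limma, adjusted p = 0.000116), Mrpl15 fell by 1.36 ± 0.24 (adjusted p = 0.000133), Mrps27 fell by 1.31 ± 0.27 (adjusted p = 0.00072) and Mrpl3 fell by 1.29 ± 0.26 (adjusted p = 0.000752). Mrps27, found only in mitochondria and able to bind RNA, was at 8.24 and 7.74 at 8 h and 6.84 and 6.51 at 24 h, so that the groups did not overlap. Mrps6 fell by 0.87 (adjusted p = 0.0298), a call lost under quantile normalization and without either 8 h array or the number 2 array at 24 h. The count of 31 became 14 without the number 1 array at 8 h and 15 without the number 2 array at 24 h.

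**Figure D3:**
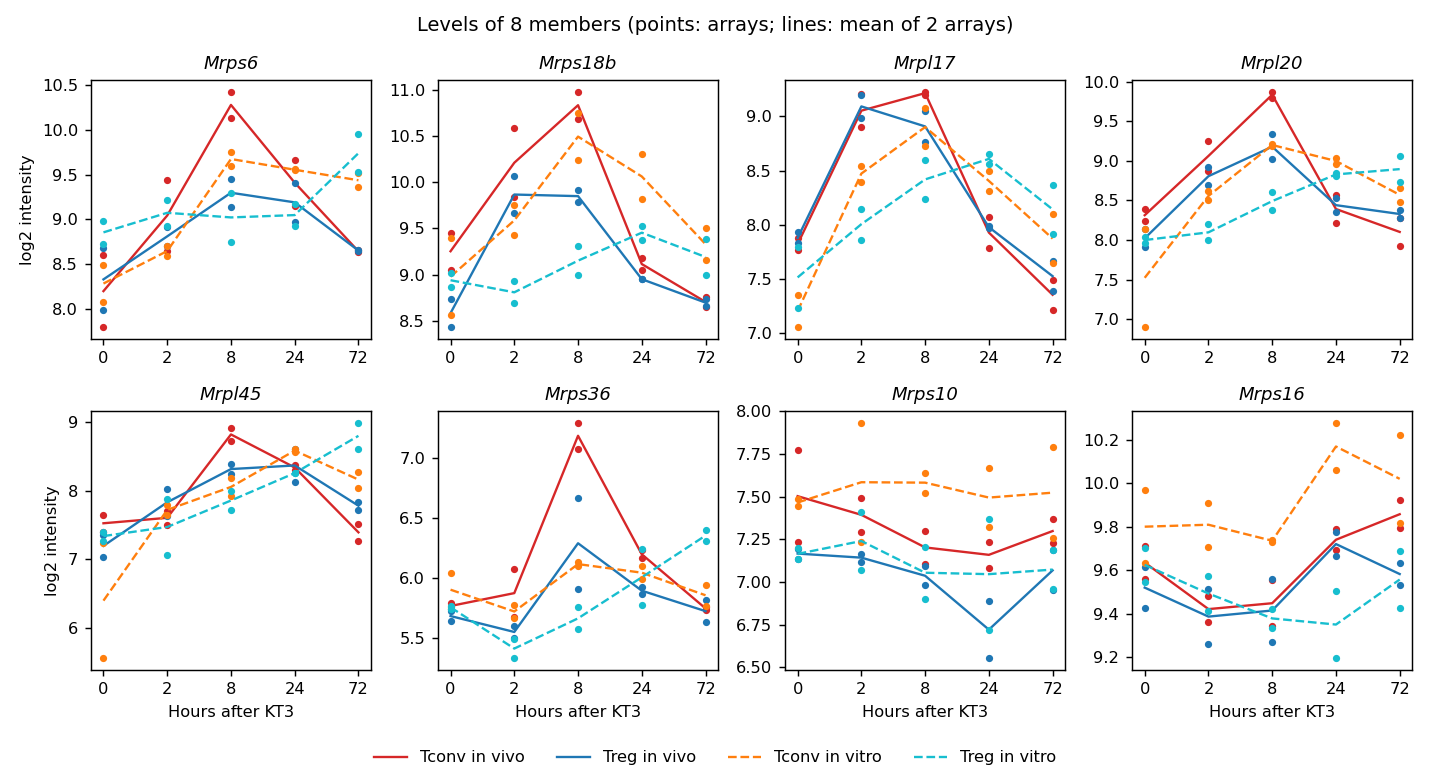
Log2 level of 8 members on each array (points) against time after KT3 in Tconv and Treg, in vivo and in vitro, with lines through the means of the 2 arrays. Mrps6, Mrps18b, Mrpl17 and Mrpl20 have their highest mean at 8 h in Tconv in vivo, while Mrps16 stays between 9.34 and 9.92 there.

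In Treg in vivo a smaller set rose at 8 h. Of 76 members 6 rose at 2 h (median 0.31), when 5.04% of all genes rose and 1.42% fell. This count was near the background, and 1 of the 6 calls held under all 13 alternatives. At 8 h 20 members rose (median 0.51), when 6.36% of all genes rose and 3.31% fell. No member fell at either time. The members' median level was 7.97 and 7.71 on the 2 arrays at 0 h, 8.26 and 7.98 at 2 h, 8.52 and 8.15 at 8 h, 8.23 and 8.02 at 24 h and 7.95 and 7.88 at 72 h. On each number the 8 h array was the highest, although the number 2 array at 8 h lay below the number 1 array at 2 h. The members' median change at 8 h was 0.58 within number 1 and 0.49 within number 2, and 69 of 76 were higher on both, against 37.8% of all genes. The highest group mean was at 8 h in 51 members and at 2 h in 13, against 24.0% and 18.5% of all genes, so that the share at 2 h was near the background. On the number 1 Treg arrays, both sorted once, markers of other cells moved as well between 0 and 8 h: neutrophil markers from 6.74 to 9.49 and B cell markers from 7.21 to 8.30, while T cell markers went from 11.40 to 10.69. On the number 2 arrays, both double-sorted, neutrophil markers went from 5.75 to 5.55, B cell markers from 5.81 to 5.47 and T cell markers from 11.61 to 10.95.

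Mrps18b and Mrpl17 led in Treg as well. Mrps18b was at 8.73 and 8.43 at 0 h, 10.07 and 9.67 at 2 h, 9.92 and 9.78 at 8 h and 8.95 and 8.95 at 24 h. It rose by 1.28 ± 0.26 at 2 h and 1.27 ± 0.26 at 8 h (limma, adjusted p = 0.00218 and 0.00252). Mrpl17 was at 7.93 and 7.83 at 0 h, 9.20 and 8.99 at 2 h and 8.76 and 9.05 at 8 h, and rose by 1.21 ± 0.21 and 1.03 ± 0.21 (limma, adjusted p = 0.000426 and 0.00252). For each gene the 2 h and 8 h arrays lay above those at 0 h without overlap, and the 2 h rise was at least as large as that at 8 h. The other members called at 2 h were Mrps30 (1.17), Mrps27 (0.90), Mrpl50 (0.86) and Mrps2 (0.48). At 8 h Mrpl20 (1.16), Mrpl45 (1.12), Mrps30 (1.12) and Mrpl52 (1.12) followed Mrps18b. Mrpl45, a large subunit protein related to the inner membrane import factor Timm44, was at 7.36 and 7.03 at 0 h and 8.39 and 8.24 at 8 h (limma, adjusted p = 0.0261). Mrps6 was at 8.67 and 7.98 at 0 h and 9.45 and 9.14 at 8 h, a rise of 0.97 ± 0.28 (limma, adjusted p = 0.0279).

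Single arrays moved these Treg counts widely. The 2 h count of 6 was 3 without the number 1 array at 0 h, 1 without the number 1 array at 2 h, 1 without the number 2 array at 0 h and 15 without the cultured array that stood apart. The 8 h count of 20 was 9 and 2 without the number 1 and number 2 arrays at 0 h, 4 and 11 without those at 8 h and 31 without the cultured array. Median centring and quantile normalization each gave 12. Of the 20 calls only Mrpl17 and Mrpl38 held under all 13 alternatives. Within a cell type in vivo the array numbers paired the samples, and with the number as a block for each cell type 11 members were called at 2 h, 31 at 8 h and 2 at 24 h, Mrps6 and Mrpl45, when 9.22%, 14.6% and 1.61% of all genes were called. At 24 h limma called 0 members (5 at an unadjusted p under 0.05, median 0.35, with 0.451% of all genes higher and 0.0322% lower), and 1 without the cultured array that stood apart. At 72 h it called 0 (0 at an unadjusted p under 0.05, median 0.15, with 0.0241% of all genes higher and 0.0% lower). From 8 to 24 h Mrpl17 fell by 0.93 (adjusted p = 0.00897), Mrps18b fell by 0.90 (adjusted p = 0.0465) and Mrps5 fell by 0.72 (adjusted p = 0.0333), 3 of 76 members when 2.21% of all genes fell. With that block 5 fell, Mrpl38 and Mrps28 being added, when 8.83% of all genes were called. The count was 0 without either 24 h array, 1 without either 8 h array and 7 without the cultured array that stood apart.

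Of the 20 members called in Treg at 8 h in vivo 19 were also called in Tconv, which is 95% of the Treg calls and 38.8% of the 49 Tconv calls. Of all genes that rose, the shared ones were 88.6% of the Treg and 39.0% of the Tconv calls, so that the members were near the background in this. The exception was Mrps2, which also rose in Treg at 2 h. The larger count in Tconv did not by itself show a different response, and the difference was tested. At 8 h in vivo the Treg response was smaller than that of Tconv in 68 of 76 members, with a median difference of -0.38. Over all genes it was larger in 46.9%, with a median difference of -0.024. Limma called 0 members different (3 at an unadjusted p under 0.05), when 0.233% of all genes were called. The fit behind these counts and the intervals below had no block for the array numbers, which paired samples within a cell type in vivo. For Mrps6 the Treg response was smaller by 1.11 ± 0.40, with a 95% interval of -1.94 to -0.29. For Mrps36, tested through its high 8 h Tconv arrays, the interval was -1.38 to -0.25, both before any adjustment for the number of genes. For Mrpl17 it was -0.98 to 0.26 and for Mrps18b -1.08 to 0.45, so that for these both no difference and a clearly smaller Treg response lie within the interval. At 2, 24 and 72 h in vivo limma again called 0 members, with 0 at an unadjusted p under 0.05 each time, when 0.0483%, 0.0644% and 0.0161% of all genes were called.

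**Figure D4:**
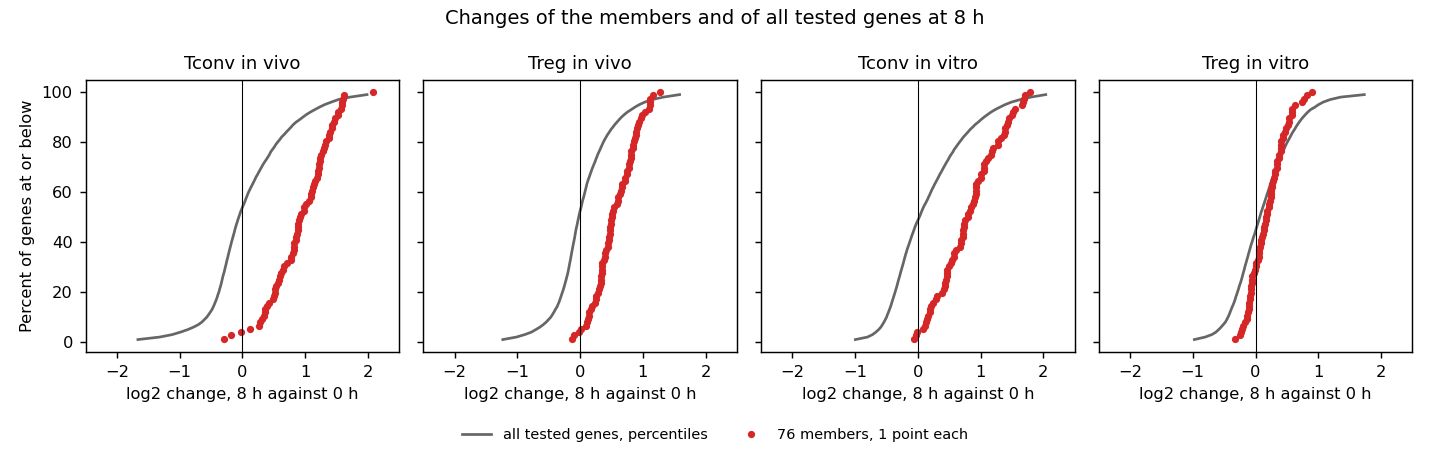
Percent of genes at or below each log2 change at 8 h, for the 76 tested members (1 point each) and for percentiles of all tested genes (line), in Tconv and Treg in vivo and in vitro. In vivo the members' median lies at 0.93 in Tconv and 0.51 in Treg, to the right of the line, while in cultured Treg it lies at 0.17, close to it.

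The cell types were also compared at rest. In vivo at 0 h limma called 0 members (3 at an unadjusted p under 0.05), when 3.1% of all genes were called. The Treg level was the lower in 62 of 76 members, with a median difference of -0.18, and quantile normalization gave 1 call. Over all genes the Treg level was the higher in 50.5%, with a median difference of 0.004. In culture at 0 h 1 member was called, Mrpl39, by 0.76 ± 0.23 (limma, adjusted p = 0.038), when 11.2% of all genes were called. Mrpl39 was at 7.67 and 8.84 in Tconv and 8.96 and 9.08 in Treg, the lowest of the 4 being the Tconv array that stood apart, and the count was 0 without it. It was also 0 without the number 2 Treg array, 6 without the number 1 Treg array and 38 without the number 2 Tconv array.

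No member was called after rat IgG. Limma called 0 of 76 members between IgG at 24 h and 0 h in Tconv (0 at an unadjusted p under 0.05, median -0.05) and 0 in Treg (1, median -0.16), when 0.0% of all genes were called in Tconv and 0.0% in Treg. With 1 IgG array per cell type, its spread was taken to be that of the other groups. Both IgG arrays were numbered 2, whereas the 0 h and KT3 means also hold number 1 arrays. On the number 2 arrays alone the members' median level in Tconv was 7.89 at 0 h, 7.92 after IgG and 8.22 after KT3 at 24 h. In Treg these levels were 7.711, 7.695 and 8.015. Against IgG, KT3 at 24 h raised Mrps6 in Tconv, at 9.67 and 9.15 against 8.02, by 1.40 ± 0.35 (limma, adjusted p = 0.0349), 1 of 76 members when 1.47% of all genes were called. That call was lost with median centring and without the number 1 KT3 array. In Treg limma called 0 members (21 at an unadjusted p under 0.05, median 0.54), when 0.274% of all genes were called. With the array number as a block it called 1, Mrps6, when 0.724% of all genes were called. Without the block it called 1 without the number 2 KT3 array and 4 without the cultured array that stood apart.

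In cultured Tconv the members were also higher than at 0 h, but how many depends on 1 array. Members that rose numbered 23 at 2 h, 39 at 8 h, 51 at 24 h and 14 at 72 h of 76, and 0 fell. Of all genes 19.5%, 15.7%, 19.4% and 6.65% rose at these times and 6.8%, 3.22%, 7.48% and 0.901% fell. Without the 0 h array that stood apart the counts were 1, 10, 3 and 0, and the members' median changes went from 0.51, 0.80, 0.93 and 0.62 to 0.06, 0.37, 0.43 and 0.17. The members' median level was 7.29 on that array and 8.06 on the other at 0 h, 8.46 and 8.43 at 8 h and 8.59 and 8.52 at 24 h. Within number 2, which does not hold that array, 39 of 76 members were higher at 2 h, 70 at 8 h, 76 at 24 h and 51 at 72 h, with medians of 0.01, 0.41, 0.40 and 0.14. Of the 127 calls over the 4 times 14 were kept without the array.

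Other arrays moved these counts as well. At 2 h the count was 3 without the number 1 array, 14 without the number 2 array and 51 without the number 2 array at 0 h. At 8 h it was 19 without the number 2 array and 61 without the number 2 array at 0 h. At 24 h it was 13 and 30 without the number 1 and number 2 arrays. At 72 h it was 1 without either of its arrays and 55 without the number 2 array at 0 h.

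The members kept without the array that stood apart included the early genes of the in vivo course. Mrpl17 was at 7.06 and 7.35 in cultured Tconv at 0 h, 8.55 and 8.40 at 2 h, 9.07 and 8.73 at 8 h, 8.50 and 8.31 at 24 h and 8.10 and 7.65 at 72 h. All later arrays lay above both at 0 h. Without the array its rise was 1.12 at 2 h, 1.55 at 8 h and 1.05 at 24 h (limma, adjusted p = 0.00769, 0.000247 and 0.0325). At 8 h Mrps7 (1.20), Mrps6 (1.19), Mrps18b (1.10), Mrpl20 (1.06), Mrps27 (0.97), Mrpl15 (0.89), Mrpl21 (0.84), Mrpl45 (0.82) and Mrpl3 (0.68) were kept with it, and at 24 h Mrpl45 (1.35) and Mrpl20 (0.85).

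Mrpl45 had the largest fitted change at 24 h in cultured Tconv, 2.19 ± 0.32 (limma, adjusted p = 0.000111). Its levels were 5.56 and 7.23 at 0 h, 7.93 and 8.18 at 8 h, 8.61 and 8.56 at 24 h and 8.28 and 8.04 at 72 h. The gap between the 0 h arrays thus made up much of the fitted change, though the later arrays were above both. Mrps18c, whose 0 h levels were 5.88 and 8.90, had the largest fitted change at 2 h, 1.96 ± 0.54 (limma, adjusted p = 0.0121), which became 0.45 without the array. From 8 to 24 h in cultured Tconv 1 member rose, Mrpl4, when 3.63% of all genes rose. It was at 7.61 and 8.24 at 8 h and 9.13 and 8.91 at 24 h, a rise of 1.09 ± 0.21 (limma, adjusted p = 0.00332). This call was lost without the number 1 array of either time, and 2 members were called without the array that stood apart.

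In cultured Treg few members were called. Of 76 members 1 rose at 2 h, 1 at 8 h, 4 at 24 h and 4 at 72 h, and 0 fell. Of all genes 4.02%, 4.52%, 5.01% and 7.34% rose at these times and 1.63%, 1.09%, 0.934% and 1.77% fell, so that the members' counts were near or below the background. The median changes were -0.01, 0.17, 0.37 and 0.50. Within number 1 they were 0.11, 0.31, 0.41 and 0.63, and within number 2 they were -0.14, 0.08, 0.35 and 0.35, so that the numbers differed in sign at 2 h. The highest group mean was at 72 h in 49 members and at 24 h in 18, against 22.8% and 17.8% of all genes. The member called at 2 h was Mrpl54, a large subunit protein found only in mitochondria, at 7.49 and 7.5 at 0 h and 8.68 and 8.02 at 2 h. It rose by 0.86 ± 0.23 (limma, adjusted p = 0.0234). Mrpl17 was at 7.24 and 7.80 at 0 h, 8.15 and 7.86 at 2 h, 8.60 and 8.24 at 8 h, 8.65 and 8.56 at 24 h and 8.37 and 7.92 at 72 h. All later arrays lay above both at 0 h, the number 2 array at 2 h narrowly so, and the rise was 0.90 ± 0.21 at 8 h and 1.09 ± 0.21 at 24 h (limma, adjusted p = 0.0101 and 0.00243). Mrps22 (1.13), Mrpl50 (0.84) and Mrpl20 (0.83) were also called at 24 h. At 72 h Mrpl45 rose most, from 7.27 and 7.40 to 8.99 and 8.61, by 1.46 ± 0.32 (limma, adjusted p = 0.00322), with Mrpl16 (0.93), Mrpl20 (0.90) and Mrps6 (0.89). In these cells Mrpl45 was thus at its highest at 72 h, whereas in Tconv in vivo its arrays at 72 h, at 7.26 and 7.52, were near those at 0 h, at 7.64 and 7.40.

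Each of these counts was moved by single arrays. The count at 2 h was 0 without either number 1 array of the comparison and 2 without the cultured Tconv array that stood apart. At 8 h it was 0 without either number 1 array, 3 without the number 2 array at 0 h and 5 without the Tconv array. At 24 h it was 0 without the number 1 array at 0 h, 1 without either 24 h array, 7 without the number 2 array at 0 h and 15 without the Tconv array. At 72 h it was 1 without the number 1 array at 0 h, 0 without the number 1 array at 72 h and 21 without the Tconv array. From 8 to 24 h limma called 0 members (1 at an unadjusted p under 0.05), when 0.0% of all genes were called.

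The Treg and Tconv responses in culture were compared in the same way. Limma called 0 members different at 2, 8, 24 and 72 h, with 15, 22, 15 and 1 at an unadjusted p under 0.05, when 0.145%, 0.652%, 0.491% and 1.79% of all genes were called. The median differences were -0.51, -0.62, -0.50 and -0.12, Treg minus Tconv. Without the Tconv 0 h array that stood apart they were -0.12, -0.19, -0.14 and 0.33, with 0 members called at each time and 2, 6, 2 and 4 at an unadjusted p under 0.05. Most of the median difference thus went with that array, and at 72 h the sign turned. Without the other Tconv 0 h array, which leaves the one that stood apart alone, the counts were 40, 38, 41 and 14.

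Whether a course differed between the mouse and the culture was tested per gene with 1 F-test over the 4 times. Its p-value covers the 4 times together, and the difference at a single time was not tested. In Tconv 7 of 76 members differed, when 6.37% of all genes did, and in Treg 8 of 76, when 10.9% did, so that the members' shares were near the background. In Tconv these were Mrpl17, Mrpl20, Mrpl38, Mrpl45, Mrps18b, Mrps36 and Mrps5. For Mrpl20 the response in vivo minus that in culture was -0.29 at 2 h, -0.16 at 8 h, -1.40 at 24 h and -1.26 at 72 h (limma F-test, adjusted p = 0.0164). Without the cultured 0 h array that stood apart the differences for Mrpl20 were 0.33, 0.46, -0.78 and -0.64, so that the signs at 2 and 8 h turned and the later differences shrank (adjusted p = 0.00153). Mrpl17, Mrpl38 and Mrps18b likewise had differences of -1.09, -1.15 and -1.22 at 24 h and -1.13, -0.90 and -0.90 at 72 h, the in vivo response being the smaller. Without that array they were -0.95, -0.77 and -0.81 at 24 h and -0.99, -0.51 and -0.48 at 72 h. All 7 members were still called without it. For Mrps36, tested through its high 8 h arrays in vivo, the difference at 8 h was 1.21 (1.07 without the array). Its rise was called in vivo and not in culture. In cultured Tconv Mrps36 was at 6.04 and 5.76 at 0 h and 6.10 and 6.13 at 8 h.

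In Treg the members that differed were Mrpl15, Mrpl17, Mrpl20, Mrps18b, Mrps27, Mrps28, Mrps36 and Mrps5. Mrps18b in cultured Treg was at 9.02 and 8.86 at 0 h and 8.93 and 8.69 at 2 h. Its 2 h response in vivo exceeded that in culture by 1.42 (limma F-test over the 4 times, adjusted p = 0.00555). Mrps5, a small subunit protein with a bacterial counterpart, was at 7.57 and 7.35 at 0 h and 8.22 and 7.89 at 2 h in vivo, and at 7.45 and 7.66 and then 7.07 and 6.78 in culture. The arrays moved in opposite directions, a difference of 1.23 at 2 h (limma F-test over the 4 times, adjusted p = 0.00148). For Mrpl17 the difference was 0.72 at 2 h, when it was called in vivo alone, and -0.99 at 24 h, when it was called in culture alone (limma F-test, adjusted p = 0.000548). Leaving out single arrays gave 3 to 44 members in Tconv, with 44 without the number 2 and 13 without the number 1 cultured 0 h array, and 4 to 16 in Treg. In Tconv the count was 3 without the number 2 array at 24 h in vivo, and 4 without the number 1 array at 8 h or number 2 array at 72 h in vivo or the number 1 array at 8 or 24 h in culture. In Treg it was 4 without the number 1 array at 2 h in vivo, the number 1 array at 72 h in culture or the number 2 array at 2 h in culture. It was 5 without the number 2 array at 72 h in vivo or at 8 h in culture, and 16 without the cultured Tconv array that stood apart. The number 2 cultures were from older male mice, and no culture was from mice of the in vivo age, so that setting and age cannot be told apart here.

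Over all 16 responses 51 members (67.1%) were called higher at least once in vivo, against 17.9% of all genes, and 14 (18.4%) in culture alone, against 23.5%. Mrpl17 was called in 9 responses, Mrpl20 in 8 and Mrpl45 and Mrps6 in 7 each, while 25 members were called in 1 or 2. Of these calls 4 were in vivo for Mrpl17, 2 for Mrpl20, 2 for Mrpl45 and 3 for Mrps6. The 4 times of a course share their 0 h arrays, and every cultured Tconv call rests in part on the array that stood apart. In at least 6 responses 8 members were called (10.5%), against 4.21% of all genes. Of the 49 members called in Tconv at 8 h in vivo, 34 were also called in cultured Tconv at 8 h, 69.4% of the former and 87.2% of the latter. Over all genes these shares were 66.1% and 60.8%. Without the array that stood apart 10 members were called in culture at 8 h and all 10 were among the 57 then called in vivo, while of all genes called in culture 92.6% were shared.

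The rest of the mitochondrial gene expression machinery was read from lists of related genes. Of 4 tested mitochondrial ribosomal proteins with other symbols 2 rose in Tconv at 8 h in vivo, Chchd1 by 1.22 ± 0.41 and Gadd45gip1 by 0.71 ± 0.17 (limma, adjusted p = 0.0339 and 0.004). Ptcd3 and Dap3 changed by 1.12 and 0.80 and were not called (adjusted p = 0.069 and 0.091). Of 24 assembly factors 11 rose and 0 fell (median 0.60). Fastkd2, an RNA-binding protein of large subunit assembly, was at 6.61 and 6.89 at 0 h, 7.75 and 7.70 at 2 h, 8.62 and 8.79 at 8 h and 6.66 and 6.97 at 24 h. The 8 h arrays were the highest, as for most members, and the rise was 1.95 ± 0.27 (limma, adjusted p = 9.91e-06). The GTPases Noa1 and Gtpbp10, which act in ribosome assembly, rose by 1.45 and 1.36.

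Of 15 translation factors 6 rose (median 0.58), led by the elongation factors Gfm1 and Tufm, each by 1.40, and the recycling factor Mrrf by 1.34. Of 16 mitochondrial aminoacyl-tRNA synthetases, which charge the transfer RNAs, 4 rose (median 0.37), among them Yars2 by 1.80, Rars2 by 1.18 and Sars2 by 1.10. Of 13 genes for the copying, transcription and care of mitochondrial RNA and DNA 7 rose (median 0.78). Lrpprc and Slirp, partners that stabilise mitochondrial messenger RNAs, rose by 1.64 ± 0.36 and 1.63 ± 0.32 (limma, adjusted p = 0.00153 and 0.000557), and Pnpt1, an exoribonuclease, by 1.36. None of these lists had a member called lower at this time, and the background of rising genes was 14.4%.

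In Treg at 8 h in vivo the counts that rose were 0 of 4 ribosomal proteins with other symbols, 4 of 24 assembly factors, 3 of 15 translation factors, 1 of 16 synthetases and 3 of 13 genes of mitochondrial DNA expression, against 6.36% of all genes. Fastkd2 rose by 1.34, Lrpprc by 1.36, Noa1 by 1.07, Gfm1 by 0.94 and Yars2 by 1.09, all of which also rose in Tconv. Whether these lists differed between the cell types was not tested.

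Of 8 tested regulators of mitochondrial biogenesis 2 rose in each cell type at 8 h in vivo, Myc and Pprc1. Myc, a transcription factor of cell growth, was at 9.22 and 9.23 at 0 h, 12.27 and 11.74 at 2 h, 10.74 and 10.98 at 8 h and 8.16 and 9.34 at 24 h in Tconv. It was thus highest at 2 h, before most members, with a rise of 2.78 ± 0.45 at 2 h and 1.64 ± 0.45 at 8 h (limma, adjusted p = 0.000262 and 0.00966). Pprc1, a coactivator of the PGC-1 family, rose by 1.36 ± 0.27 at 2 h and 1.39 ± 0.27 at 8 h (limma, adjusted p = 0.00251 and 0.000451). In Treg Myc rose by 3.14 ± 0.45 and 2.01 ± 0.45 at these times and Pprc1 by 2.03 ± 0.27 and 1.56 ± 0.27. Nrf1, Gabpa, Gabpb1, Esrra, Ppargc1b and Yy1 were not called at 8 h in Tconv, with changes of -0.23 to 0.56.

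The cytosolic ribosomal proteins, which build the other ribosome of the cell, were read in the same way. Of 53 tested 3 rose in Tconv at 8 h in vivo (median 0.28), Rpl14 by 0.99, Rpl7a by 0.61 and Rps2 by 0.45 (limma, adjusted p = 0.013, 0.0247 and 0.0147). In Treg 3 rose as well (median 0.35), Rps12 by 0.82, Rpl7a by 0.66 and Rps2 by 0.46. Of all genes 14.4% rose in Tconv and 6.36% in Treg, so that the count in Treg was near the background.

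**Figure D5:**
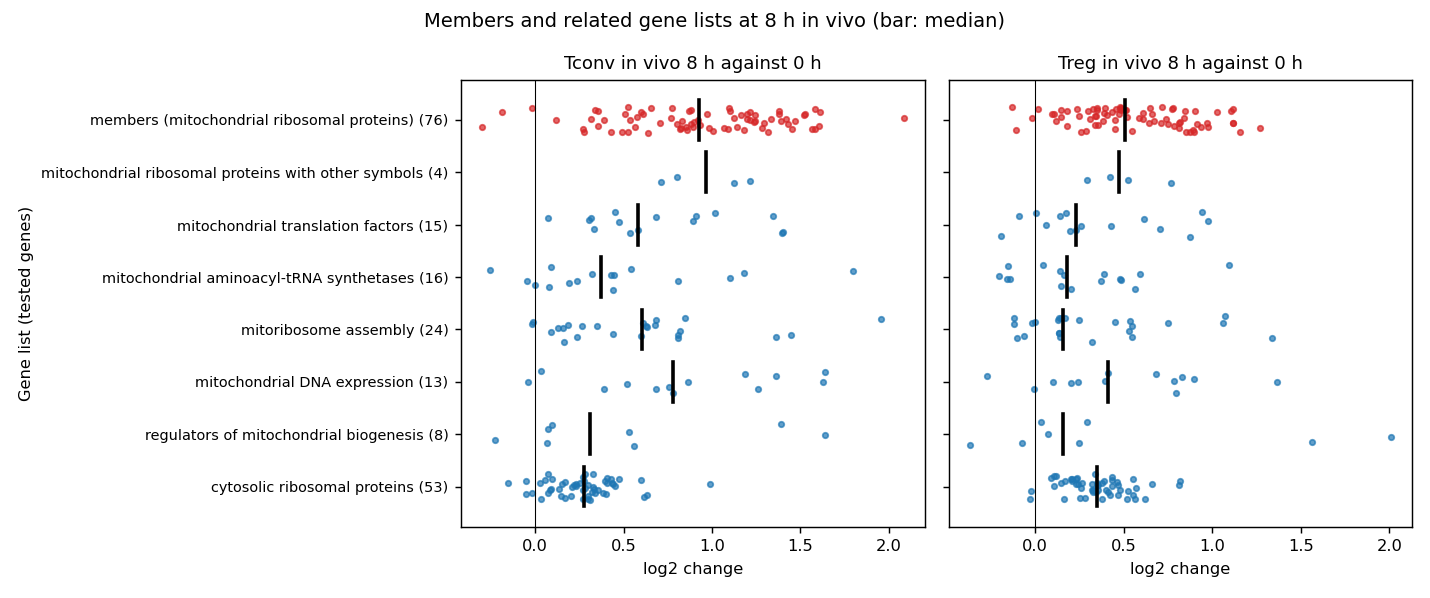
Log2 change at 8 h against 0 h in vivo of each tested gene (points) of the members and of 7 related lists, with bars at the list medians, in Tconv and Treg. In Tconv the members' median of 0.93 and that of the ribosomal proteins with other symbols, 0.96, lie to the right of the cytosolic ribosomal proteins at 0.28.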

How the data were processed

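The authors deposited linear intensity values, 1 for each transcript cluster of an array, from 4.8403 to 29756.3596. The series design text gives RMA, run in GenePattern, as the preprocessing, and the submitters' processing notes name RMA and Affymetrix Power Tools. No source used here gives their versions. Array medians were 87.6 to 116.4. The number of arrays limits the precision.

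Of 24922 clusters 21425 had 1 symbol in the platform's gene table, 1399 had several and 2098 were not listed. A current gene table matched 21347 and changed 0 symbols. Values were taken to log2 with no offset. A gene was tested if it exceeded the array's median on 2 or more arrays, which left 12425 of 19752. Limma 3.58.1 (R 4.3.3) fitted 22 group means to the 42 arrays together (20 residual and 5.01 prior degrees of freedom). Its two-sided p-values underwent Benjamini-Hochberg adjustment across the tested genes and were called under 0.05. Errors are SEs of the log2 change. The fit was tested on simulated data. Figures were drawn with matplotlib 3.10.9.

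The members and all gene lists were chosen with earlier results of these data known, so that no list is independent support. Any member could be named. In each contrast up to 5 called members with the largest rise and 5 with the largest fall came first. The members of highest and lowest mean level (Mrps16 and Mrpl42), the Mrps18 paralogues, the members never called, up to 3 called genes of each related list, Foxp3 and Il2ra were also named. Other genes were chosen after their values were seen. Deviations of same-numbered arrays correlated at 0.647 to 0.775 among the Tconv groups in vivo and 0.409 to 0.702 among the Treg groups, so that the numbers paired samples there. The correlations were -0.171 to 0.324 between cell types in vivo and -0.447 to 0.709 in culture. The reported fit has no block, and a block for each cell type was added as an alternative. Alternatives tried were quantile normalization, median centring, no filter on dim genes, a replicate block, the sort as a term, the mean of all clusters of a symbol, array weights and leaving out single arrays.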

Additional observations from a re-analysis of the deposited data

Results flagged for a closer look

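The course after KT3 differed between the mouse and the culture in 15 tests of members (limma F-test over the 4 times, adjusted over all 12425 genes). These were 7 of 76 members in Tconv, when 6.37% of all genes differed, and 8 of 76 in Treg, when 10.9% did, so that the counts were near the background. In Tconv the adjusted p was 0.00336 for Mrpl38, 0.0164 for Mrpl20, 0.0181 for Mrpl17, 0.0207 for Mrps18b, 0.0234 for Mrps36, 0.0353 for Mrps5 and 0.0367 for Mrpl45. In Treg it was 0.000548 for Mrpl17, 0.00148 for Mrps5, 0.00555 for Mrps18b, 0.0141 for Mrps27, 0.0153 for Mrpl15, 0.024 for Mrpl20, 0.0285 for Mrps36 and 0.0443 for Mrps28. Mrpl17, Mrpl20, Mrps18b, Mrps36 and Mrps5 were in both sets. Mrps36 was tested through its high Tconv arrays at 8 h in vivo. For Mrpl45 in Tconv the in vivo response minus that in culture was -1.24, -0.36, -1.37 and -1.90 at 2, 8, 24 and 72 h, with cultured 0 h arrays at 5.56 and 7.23. Without the lower of these arrays, the one that stood apart, it was -0.41, 0.47, -0.54 and -1.06 (adjusted p = 0.014). For Mrps27 in Treg the in vivo response was larger at 2 h by 1.11 and smaller at 72 h, the difference being -0.70.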

How the results depend on the processing

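Over 36 results and 494 fits the count of called members stayed within 1.5 times the main count in 353 and moved in 141. A replicate block for each cell type, chosen after seeing the data and run in vivo, kept 114 of 114 calls. It gave 4 members in Tconv at 2 h, 11, 31 and 2 in Treg at 2, 8 and 24 h, 5 in the Treg step and 1 for KT3 against IgG in Treg, and moved no other count by over 1.5 times. In culture and between cell types array numbers were not taken to pair samples. A replicate block common to both cell types kept all 253 member calls. It raised counts in cultured Tconv at 72 h to 26, cultured Treg at 2, 8, 24 and 72 h to 2, 2, 7 and 16, cultured Treg against Tconv at 0 h to 4, the cultured 8 h difference to 3, the 8 to 24 h steps to 5 in Treg in vivo and 2 in cultured Tconv, KT3 against IgG in Treg to 1 and the F-tests to 11 in Tconv and 15 in Treg. Array weights kept 122 calls. They gave 4 at 2 h and 4 at 24 h in Tconv in vivo, 19, 31 and 1 at 2, 8 and 24 h in Treg in vivo, 0 at every time in cultured Tconv, 0 at 2 h in cultured Treg and at rest in culture, 5 in the Treg step in vivo, 1 for KT3 against IgG in Treg and 30 in the Treg F-test. Quantile normalization kept 199 calls. It gave 12 in Treg at 8 h in vivo, 25 in cultured Tconv at 72 h, 3 and 2 in cultured Treg at 2 and 8 h, 1 and 15 at rest in vivo and in culture, and 6 and 1 for the cultured differences at 8 and 24 h. Median centring kept 234 calls. It gave 1 in Tconv at 2 h and 12 in Treg at 8 h in vivo, 8 in cultured Treg at 24 h, 2 at rest in culture, 1 in the Treg step in vivo, 0 and 1 for KT3 against IgG in Tconv and Treg, and 4 in the Treg F-test. With no filter on dim genes 227 calls were kept, with 1 in Tconv at 2 h in vivo. No member was called lower in a response as reported, whereas quantile normalization called 3 and 1 lower in cultured Tconv at 2 and 8 h and 1 in cultured Treg at 2 h, where the replicate block and leaving out the Tconv array that stood apart also called 1. The mean of all clusters kept 249 and the sort as a term 114 of 114 in vivo.

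Another alternative chosen after seeing the data left out the 3 in vitro arrays of narrowest range together. It gave 1, 4, 3 and 0 members in cultured Tconv, 0, 0 and 2 in cultured Treg at 2, 8 and 24 h, 0 at rest in culture and 17 in the Treg F-test. Under it, and without the Tconv 0 h array that stood apart, Mrps17 at 2 h in cultured Tconv reversed from 0.97 to -0.018, and leaving out single arrays gave it values of -0.018 to 1.97. These alternatives hold fewer arrays, and for the others the cause was not tested.

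Leaving out 1 array at a time gave ranges over the arrays of each comparison and the array that stood apart. In Tconv in vivo they were 1 to 4 at 2 h, 24 to 57 at 8 h and 0 to 4 at 24 h, and 14 to 36 for the step. In Treg in vivo they were 1 to 15, 2 to 31 and 0 to 1, and 0 to 7 for the step. In cultured Tconv they were 1 to 51, 10 to 61, 3 to 62 and 0 to 55, and 0 to 2 for the step. In cultured Treg they were 0 to 2, 0 to 5, 0 to 15 and 0 to 21, and at rest in culture 0 to 38. For the cultured differences they were 0 to 40, 0 to 38, 0 to 41 and 0 to 14, for KT3 against IgG 0 to 1 in Tconv and 0 to 4 in Treg, and for the F-tests 3 to 44 and 4 to 16. Where 1 array was left in a group, its spread was borrowed from the rest. The members' median change at 8 h in vivo was 0.71 to 1.10 in Tconv and 0.36 to 0.68 in Treg over the settings run. Dim members such as Mrps36 and Mrpl42 have little signal over background.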
